A study of Mus musculus with 6 samples.

Results

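The 37 mitochondrially encoded genes of the mouse were described in haploid embryonic stem cells with and without p53. They were taken as every gene whose name starts with mt-, which gave 37 of the 54532 genes in the deposited expression table, all on chromosome MT. Of these, 13 encode mRNAs, 2 encode rRNAs and 22 encode tRNAs. By annotated strand, 28 genes lie on the plus strand and 9 on the minus strand, the latter being mt-Nd6 and 8 tRNA genes. The 6 libraries came from haploid embryonic stem cells of strain 129SV, 3 from wild-type (WT) cells and 3 from p53-deficient cells. The second group is titled P53ki, while its genotype and the series design give a loss of p53, and it is called p53-deficient here. The series sets these transcriptomes against each other in its only RNA comparison. The labels give no sign that the replicates were separate cultures, lines or clones, so p-values reflect only how far these libraries spread, possibly for technical reasons. Effects of the line and of p53 loss cannot be told apart.

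Mitochondrial DNA is copied into long transcripts of both strands, which are cut apart, largely at the tRNAs that sit between the other genes. Its mRNAs encode core subunits of respiratory complexes I, III and IV and of ATP synthase (complex V), its rRNAs build the mitochondrial ribosome, and its tRNAs serve translation in the organelle. Most of these mRNAs receive a short A tail, the rRNAs are tailed more sparsely, and a mature tRNA has none. The RNA here was bound to poly-T beads, so the levels below are those of RNA retained by that step and not of all mitochondrial RNA. In bulk RNA, fewer cells of a type and less RNA per cell cannot be told apart.

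The libraries held 11536412 to 21218976 reads in listed genes. Trp53, the gene for p53, was lower in each p53-deficient library, with 64.5, 69.8 and 69.6 FPKM in WT and 9.71, 9.71 and 9.98 FPKM in p53-deficient cells (log2 fold change -2.67 ± 0.0371 SE, adjusted p = 3.57e-08 in limma). FPKM gives the fragments on a gene relative to its length and to the size of the library. All 14 pluripotency markers were read in every library, with summed levels of 3621 to 3685 FPKM in WT and 2968 to 3078 FPKM in p53-deficient libraries. By gene, 8 of the 14 rose and 5 fell (median log2 fold change 0.13), and the lower sum rests on abundant genes such as Dppa5a, whose mean was 2007 in WT against 1075 FPKM without p53. All 30 fibroblast markers had lower means in p53-deficient cells, where none was at 0, and their summed level was 2208 to 2220 FPKM in WT and 656 to 689 FPKM in p53-deficient libraries. The 4 Y-linked genes summed to 3.51 to 3.94 FPKM and 0.330 to 0.395 FPKM, and none was at 0 either. All fibroblast and Y-linked markers were thus lower in the p53-deficient libraries that every comparison below uses, while the pluripotency markers went both ways. The part of these markers in the results was not tested.

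Mitochondrial genes took a smaller share of the reads in p53-deficient cells. Within that share rRNA reads were more frequent, and reads counted on minus strand genes, mostly mt-Nd6, were less frequent. In WT the share of reads in listed genes was 2.22, 2.24 and 2.27%, and in p53-deficient cells 1.99, 1.93 and 2.04%, so the groups did not overlap (mean 2.24 ± 0.0220% against 1.99 ± 0.0514%, SD, n = 3 in each group throughout). The difference in log2 ratio was -0.17, with a spread within groups of 0.0283 (SD). The sums over these genes were not tested, because the members were chosen as a set.

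Among mitochondrial reads, mRNAs held 95.9% in WT and 94.7% in p53-deficient cells, rRNAs 3.64% and 4.82%, and tRNAs 0.495% and 0.468%. Per 100 mRNA reads there were 3.87, 3.81 and 3.71 rRNA reads in WT and 5.14, 5.28 and 4.84 in p53-deficient cells. All 3 p53-deficient libraries lay above all 3 WT libraries. The log2 difference of this ratio was 0.42 against a spread of 0.0504. Per 1000 mRNA reads there were 5.19, 5.05 and 5.25 tRNA reads in WT and 4.65, 5.53 and 4.65 in p53-deficient cells. Here the groups overlapped, since p53-deficient library 2, the one with the fewest reads, was the highest of all 6, and the log2 difference of -0.07 was within the spread of 0.104.

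**Figure D1:**
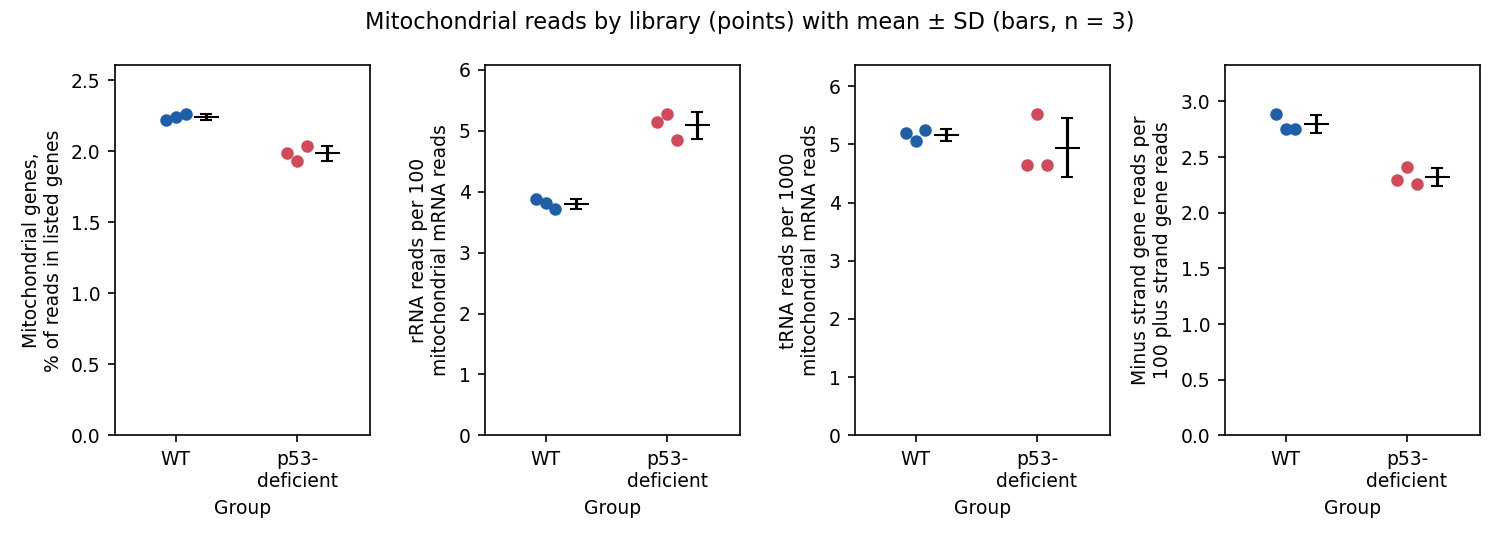
Share and make-up of mitochondrial reads, one point per library with mean ± SD beside it. The first panels give percent of reads in listed genes and rRNA reads per 100 mRNA reads. The others give tRNA reads per 1000 mRNA reads and minus strand gene reads per 100 plus strand gene reads. The groups are apart in all panels but that of the tRNAs.

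Gene by gene, 31 of the 37 members passed the filter of a mean of at least 0.5 FPKM and were tested with all other genes. Of these 31, 3 were higher in p53-deficient cells (9.68%), 9 were lower (29.0%) and 19 did not pass at an adjusted p under 0.05. Over all 15144 genes tested, 66.5% were called, 35.3% higher and 31.3% lower, against 38.7% of the mitochondrial genes. Whether these shares differ was not tested. Their groups did not overlap for 13 of 31 members, while 71.4% of all tested genes had groups that did not overlap. The median log2 fold change was -0.0032 over the members and 0.03 over all tested genes. By class, 6 of 13 mRNAs fell and none rose, both rRNAs rose, and of 16 tested tRNAs 3 fell and 1 rose. The lack of rising mRNAs did not hold under quantile normalization, where mt-Nd1, mt-Nd2 and mt-Nd4 were called higher and mt-Co1 was no longer called. Voom weights called mt-Nd1 and mt-Atp6 higher, and a filter of mean FPKM at least 5 called mt-Atp6 higher, while scaling by the median ratio added mt-Nd2, mt-Nd4 and mt-Cytb to the lower calls.

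**Figure D2:**
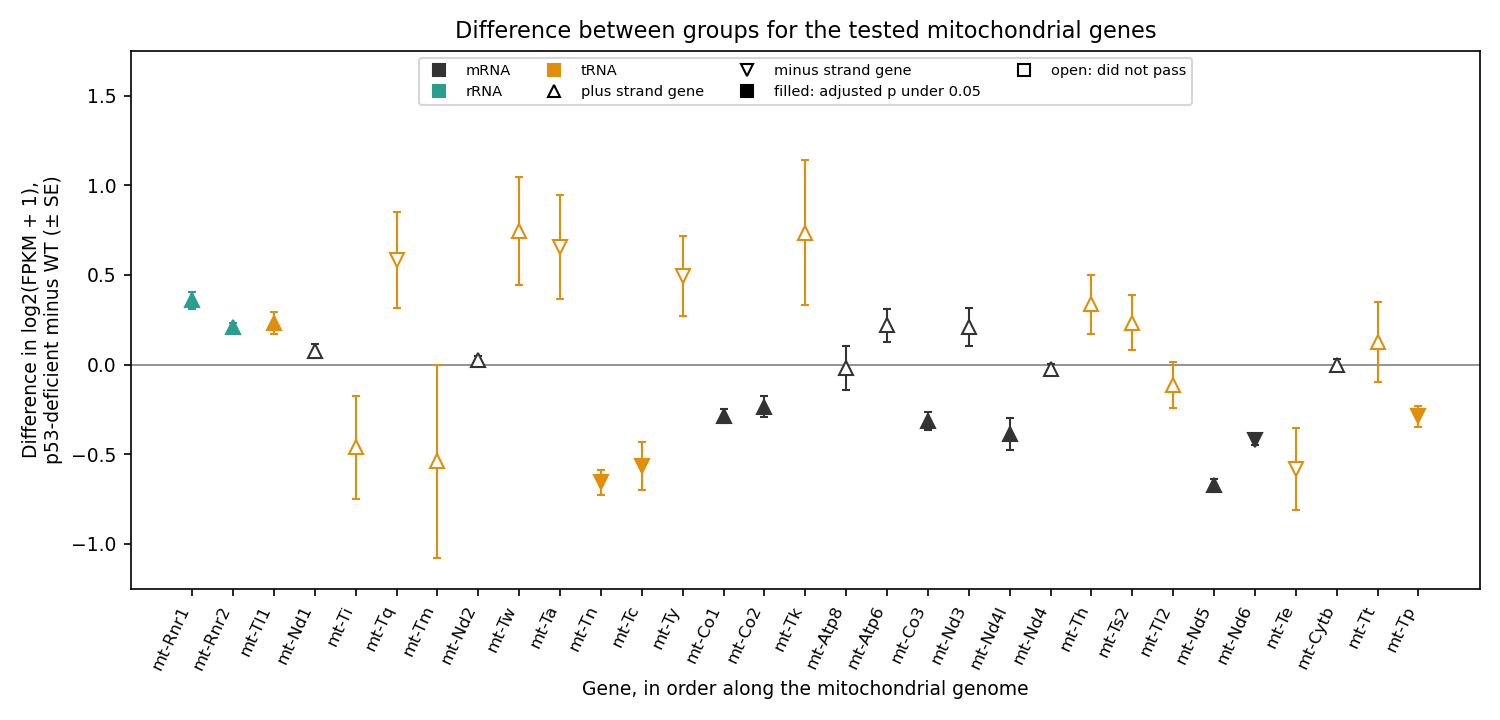
Difference between groups for the 31 tested members, in order along the mitochondrial genome; the vertical axis is log2(FPKM + 1), p53-deficient minus WT, with SE bars. Colour gives the class, the triangle's direction the strand, and filled symbols passed an adjusted p of 0.05: both rRNAs and mt-Tl1 lie above 0 and 9 filled symbols lie below, with mt-Nd5 (-0.67) lowest.

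The rRNA genes and the tRNA gene that follows them were the only 3 members called higher. mt-Rnr1, the rRNA of the small ribosomal subunit (ENSMUSG00000064337, MT:70-1024), measured 200, 206 and 198 FPKM in WT and 276, 257 and 243 FPKM in p53-deficient cells, a rise with a log2 fold change of 0.36 (SE 0.0481, adjusted p = 0.000617 in limma). All p53-deficient libraries were above all WT libraries. mt-Rnr2, the rRNA of the large subunit (ENSMUSG00000064339, MT:1094-2675), measured 394, 386 and 384 FPKM in WT and 451, 453 and 443 FPKM in p53-deficient cells, again without overlap. Its log2 fold change was 0.21 (SE 0.0225, adjusted p = 0.000208). Within a library, mt-Rnr2 stood at 1.93 ± 0.0467 times mt-Rnr1 per length in WT and at 1.74 ± 0.0991 times in p53-deficient cells, without overlap.

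These genes neighbour each other. mt-Tv, the valine tRNA gene between the rRNAs, had 4 reads in all 6 libraries and was not tested. mt-Tl1, a leucine tRNA gene (ENSMUSG00000064340, MT:2676-2750), starts at the base after mt-Rnr2 ends and ends at the base before mt-Nd1 starts. It measured 129, 126 and 131 FPKM in WT and 143, 167 and 146 FPKM in p53-deficient cells, with no overlap (log2 fold change 0.23, SE 0.0604, adjusted p = 0.0134 in limma). This call was lost under scaling by the median ratio (adjusted p = 0.0977), quantile normalization (0.0571) and voom weights (0.0951). mt-Nd1, next on the same strand and a core subunit of complex I, did not pass (log2 fold change 0.08), and per length the rRNAs stood higher against it in p53-deficient cells: 0.0691 ± 0.00492 against 0.0566 ± 0.00159 for mt-Rnr1 and 0.120 ± 0.00596 against 0.109 ± 0.00214 for mt-Rnr2.

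The levels of several mRNAs have to be read beside near-identical copies in the nuclear genome. On the minus strand of chromosome 1, 7 unprocessed pseudogenes annotated over 4663 bases (chr1:24611535-24616197, mm10) matched mitochondrial genes in the same order as they lie over 4662 bases of mitochondrial DNA with 13 genes (MT:6381-11042). The sequence between the pseudogenes was not used here, and this whole span is called the copied stretch below. Their matched parts were 99.7% to 100% identical to mt-Co1, mt-Co2, mt-Atp6, mt-Co3, mt-Nd3, mt-Nd4l and mt-Nd4, covering all but the last bases of 5 of these genes, the last 483 bases of mt-Co1 and the first 876 of mt-Nd4. Over these aligned parts, 1 base differed in mt-Nd3 and 1 in mt-Co1. The windows around them show how little there is to part a read of one place from a read of the other, with the differing base in capitals, positions counted from 1 at the 5′ end of the mitochondrial gene and sequences read from GENCODE release M21. They are T3C in mt-Nd3 (MT:9459-9491) and A1066T in mt-Co1 (MT:6390-6423).
mt-Nd3: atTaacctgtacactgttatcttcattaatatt
Gm28438: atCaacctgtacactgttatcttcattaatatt
mt-Co1: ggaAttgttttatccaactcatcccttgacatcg
Gm29216: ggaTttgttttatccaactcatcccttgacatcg

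The sources used here do not say how reads that match both places were counted. The table listed reads under both names: the chromosome 1 copy held 84.6% of the reads of its pair for mt-Nd3, 73.4% for mt-Atp6, 70.8% for mt-Co3, 69.7% for mt-Nd4l and 67.0% for mt-Co2, but 3.57% for mt-Nd4 and 1.44% for mt-Co1, which reach beyond the copied stretch. The 6 mRNAs wholly inside that stretch had mean levels of 9.08 to 143 FPKM (median 50.2), and the 5 wholly outside it 879 to 3652 FPKM (median 1441), with no overlap. Of 5 tRNA genes inside, 3 had no read, against 1 of 17 outside. Neither mt-Atp8 nor these 5 tRNA genes had a match of their own among annotated chromosome 1 transcripts. Whether the sequence between the pseudogenes matches them was not examined. The part of copies in these levels was not tested, and the level per length of the 6 inner mRNAs cannot be set against those outside.

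**Figure D3:**
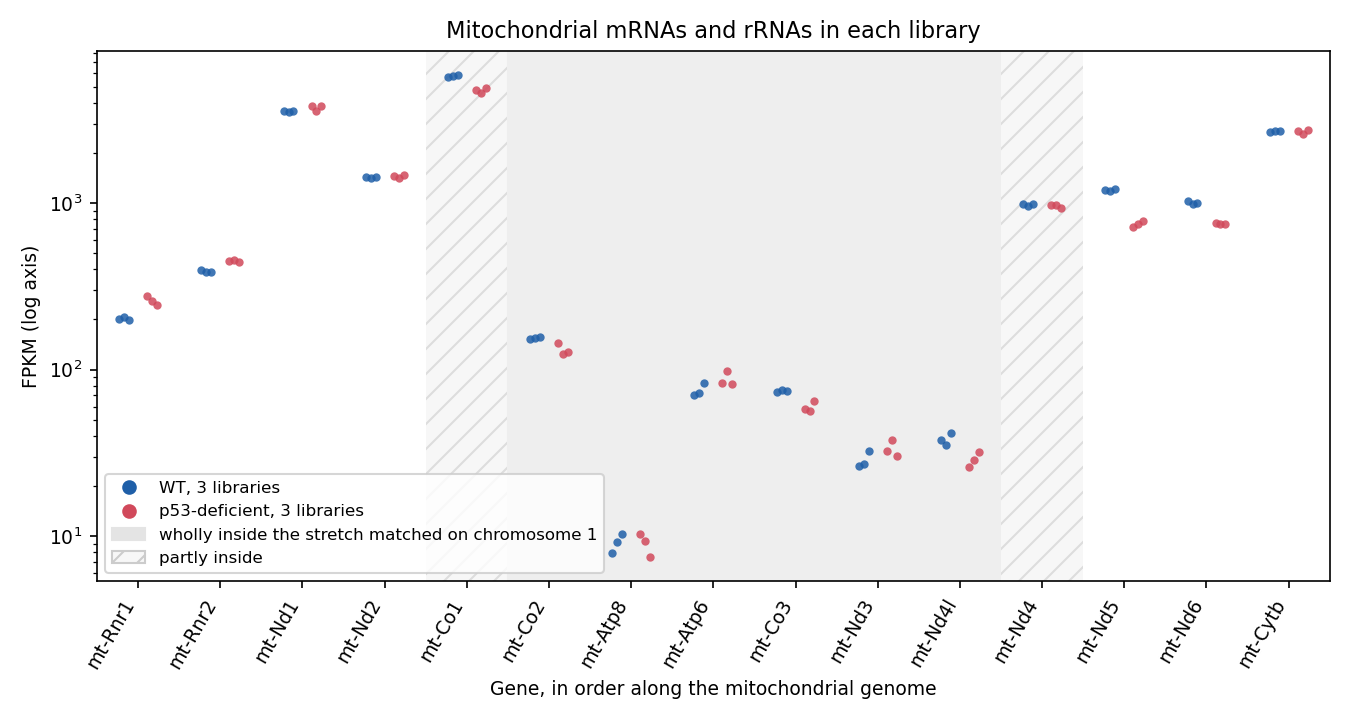
FPKM (log axis) of the 13 mRNAs and 2 rRNAs in each of the 6 libraries, in order along the mitochondrial genome. Grey shading marks the 6 mRNAs wholly inside the copied stretch, all at or below 158 FPKM, and hatching marks the 2 genes partly inside it. Of the shaded genes, mt-Atp8 had no annotated chromosome 1 copy of its own.

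Both members of a pair had differences of the same sign in all 7 pairs. Gm28661, Gm28437 and Gm10222, the copies of mt-Co2, mt-Co3 and mt-Nd4l, were called lower as were those genes (log2 fold change -0.23, -0.43 and -0.45). Gm28438, the copy of mt-Nd3, was called higher (0.22), Gm28439, that of mt-Nd4, lower (-0.30), and Gm10925 (0.12) and Gm29216 (-0.10), those of mt-Atp6 and mt-Co1, did not pass. Because the sequences match, the values of a pair are not independent measurements. With the reads of each pair added, mt-Co1, mt-Co2, mt-Co3 and mt-Nd4l were again lower (-0.28, -0.23, -0.40 and -0.44), mt-Nd4 again did not pass (-0.03, adjusted p = 0.303 in limma), and mt-Nd3 and mt-Atp6 came out higher (0.22, adjusted p = 0.0014, and 0.15, adjusted p = 0.0189). In the deposited values of the latter genes alone the groups overlapped. mt-Nd3 measured 26.5, 27.1 and 32.7 FPKM in WT and 32.2, 37.8 and 30.1 FPKM in p53-deficient cells (log2 fold change 0.21, adjusted p = 0.125), and without WT library 3 it was called higher (0.30, adjusted p = 0.0363).

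**Figure D4:**
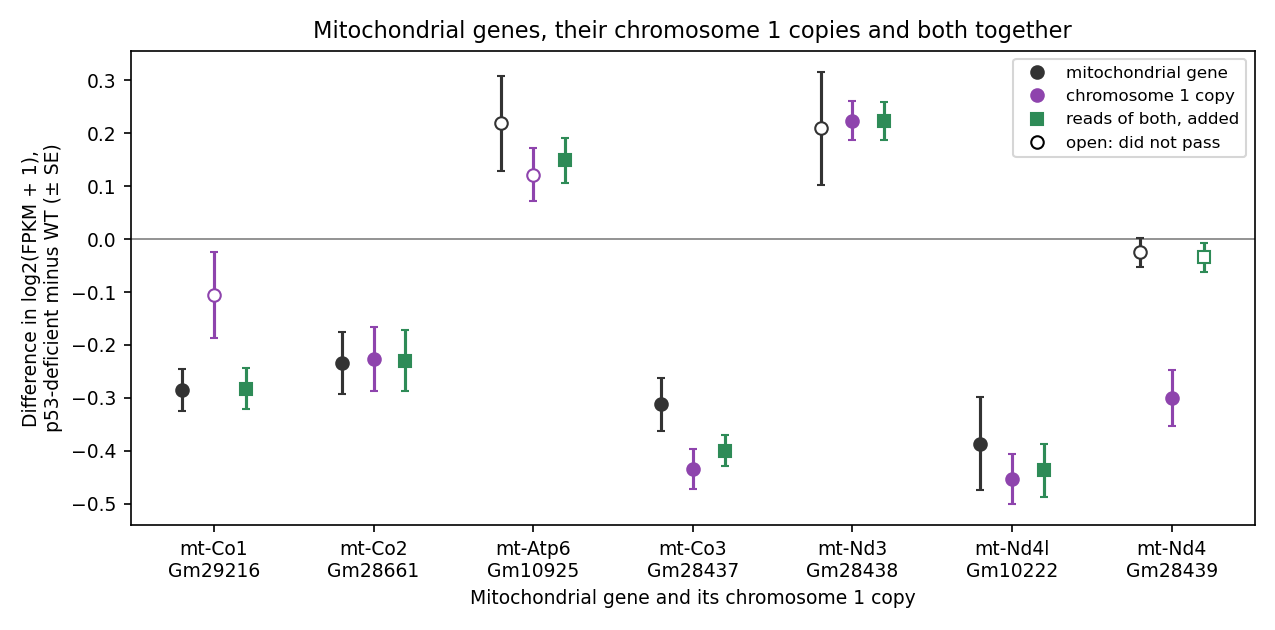
Difference between groups in log2(FPKM + 1), p53-deficient minus WT, with SE bars, for the 7 mitochondrial genes with a chromosome 1 copy, for the copy, and for the reads of both added. Open symbols did not pass an adjusted p of 0.05, and within each pair all symbols lie on the same side of 0.

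Of the 7 subunits of complex I, which takes electrons from NADH, 3 fell (42.9%) and 4 did not pass. Over all genes tested, 31.3% were called lower and 66.5% were called in either direction. mt-Nd5 (ENSMUSG00000064367, MT:11742-13565) had the most negative log2 fold change of any mitochondrial gene tested. It measured 1192, 1188 and 1213 FPKM in WT and 720, 751 and 782 FPKM in p53-deficient cells (log2 fold change -0.67, SE 0.0351, adjusted p = 7.74e-06 in limma), which means that its mean level fell by 37.3%. The libraries of each group lay close together and far from those of the other group. Against mt-Nd4, which precedes it on the same strand with only 3 tRNA genes between, mt-Nd5 stood at 1.21, 1.23 and 1.23 times per length in WT and at 0.737, 0.774 and 0.837 times in p53-deficient cells, without overlap. The first 876 bases of mt-Nd4 lie in the copied stretch, so its level per length, and with it the side of 1 on which this ratio lies, is uncertain.

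mt-Nd6 (ENSMUSG00000064368, MT:13552-14070), the only mRNA gene of the minus strand, measured 1034, 985 and 1001 FPKM in WT and 755, 745 and 752 FPKM in p53-deficient cells (log2 fold change -0.42, SE 0.0267, adjusted p = 1.78e-05 in limma). All p53-deficient libraries were below all WT libraries, and within libraries mt-Nd6 stood at 0.374 ± 0.0136 times mt-Cytb in WT and at 0.280 ± 0.00611 times in p53-deficient cells. The genes mt-Nd5 and mt-Nd6 overlap by 14 bases on opposite strands. Nothing states that the library kit keeps strand information, and without it the reads of an RNA antisense to either gene cannot be told apart from its own. mt-Nd4l, the shortest complex I gene and one with a chromosome 1 copy, measured 37.6, 35.2 and 41.7 FPKM in WT and 26.1, 28.8 and 32.1 FPKM in p53-deficient cells, also without overlap (log2 fold change -0.39, adjusted p = 0.00731).

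The other 4 complex I mRNAs had overlapping groups. mt-Nd1 measured 3546, 3531 and 3591 FPKM in WT and 3842, 3578 and 3827 FPKM in p53-deficient cells (log2 fold change 0.08, adjusted p = 0.119 in limma), with p53-deficient library 2 inside the WT range. It was called higher without that library (0.11, adjusted p = 0.0235), with voom weights (0.06, adjusted p = 0.00421) and with quantile normalization (0.20, adjusted p = 0.00374). mt-Nd2 changed little, from 1429 ± 6.38 to 1453 ± 30.2 FPKM (0.02), and mt-Nd4 measured 983, 963 and 986 FPKM in WT and 978, 970 and 935 FPKM in p53-deficient cells (-0.02). Both of these lay on the other side of 0 or were called under another scaling: mt-Nd2 at -0.07 with median-ratio scaling and at 0.22 with quantile normalization, mt-Nd4 at -0.12 and 0.10.

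All 3 mitochondrial subunits of complex IV, cytochrome c oxidase, were lower in p53-deficient cells, beside 31.3% of all genes tested. mt-Co1, the catalytic subunit (ENSMUSG00000064351, MT:5328-6872), had the highest level per length of all members, with 5705, 5808 and 5886 FPKM in WT and 4803, 4561 and 4920 FPKM in p53-deficient cells. No p53-deficient library reached a WT library (log2 fold change -0.29, SE 0.0391, adjusted p = 0.000698 in limma). It held 40.5 ± 0.284% of mitochondrial reads in WT and 37.0 ± 0.490% in p53-deficient cells. Quantile normalization gave it a difference of 0 (adjusted p = 1).

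mt-Co2, the subunit that accepts electrons from cytochrome c, measured 152, 156 and 158 FPKM in WT and 145, 123 and 128 FPKM in p53-deficient cells (log2 fold change -0.23, adjusted p = 0.0113 in limma). mt-Co3 measured 72.9, 75.0 and 74.0 FPKM and 58.0, 56.1 and 64.3 FPKM (-0.31, adjusted p = 0.00155). For both genes the highest p53-deficient library was below the lowest WT library, and both lie wholly inside the copied stretch.

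mt-Cytb, the cytochrome b of complex III and the only mitochondrial subunit of that complex, had group means that differed by less than the spread of the libraries. It measured 2655, 2709 and 2711 FPKM in WT and 2725, 2601 and 2733 FPKM in p53-deficient cells (log2 fold change -0.0032, adjusted p = 0.937 in limma). Median-ratio scaling gave it -0.10 and a call as lower. With this level nearly the same, its part of the mitochondrial reads was larger in p53-deficient cells, 15.5 ± 0.0615% against 13.9 ± 0.105%.

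Neither mitochondrial subunit of ATP synthase passed. mt-Atp6, part of the proton channel, measured 69.9, 72.1 and 83.0 FPKM in WT and 83.1, 97.8 and 81.6 FPKM in p53-deficient cells (log2 fold change 0.22, adjusted p = 0.0695 in limma), with WT library 3 within the range of the other group. It was called higher without that library (0.29, adjusted p = 0.0266), with voom weights (0.17, adjusted p = 0.019) and with a filter of mean FPKM at least 5 (adjusted p = 0.0494). mt-Atp8 measured 7.95, 9.20 and 10.2 FPKM and 10.3, 9.33 and 7.50 FPKM (-0.02, adjusted p = 0.910) on 201 reads in all, the fewest of any mRNA. These genes are read in different frames from 1 RNA and share 43 bases (MT:7927-7969), shown with the first codon of mt-Atp6 and the stop codon of mt-Atp8 in capitals. A read that covers this shared stretch overlaps both genes. At 204 bases, mt-Atp8 is shorter than the fragments of 250 to 300 bp that the library protocol selected. A fragment of that size counted on mt-Atp8 reaches past it.
mt-Atp8 and mt-Atp6 overlap: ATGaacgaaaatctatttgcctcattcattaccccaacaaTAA

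Of the 13 mRNA genes, 10 end in a complete stop codon and 3, mt-Co3, mt-Nd4 and mt-Cytb, end in a lone T, for which the A tail is known to supply the rest of the stop. Of these 3, mt-Co3 fell and the others did not pass, so these data set the 3 apart in no single direction.

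The tRNA genes are 59 to 75 bases long, while the library protocol selected fragments of 250 to 300 bp, longer than any of them. A fragment of that size counted on a tRNA gene reaches past it. Counts on tRNA genes were small, at 10916 of 2277670 mitochondrial reads over the 6 libraries, and the part of fragment size or poly-T selection in this was not tested. Most of these reads fell on few genes. mt-Tp, for proline, had 4367, mt-Tc, for cysteine, 1718, mt-Tl2, the other leucine tRNA gene, 1379, mt-Tn, for asparagine, 1158, and mt-Tl1 1120. Their sequences are shown from GENCODE release M21, 5′ to 3′ on the strand of the gene, with the anticodon in capitals. The calls among tRNAs rest on these genes, except mt-Tl2, which did not pass. mt-Tp (MT:15356-15422), mt-Tc (MT:5192-5257) and mt-Tn (MT:5089-5159) lie on the minus strand, and mt-Tl2 (MT:11671-11741) and mt-Tl1 on the plus strand.
mt-Tp: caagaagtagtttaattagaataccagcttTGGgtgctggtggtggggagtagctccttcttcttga
mt-Tc: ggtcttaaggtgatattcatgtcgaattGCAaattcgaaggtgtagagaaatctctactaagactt
mt-Tn: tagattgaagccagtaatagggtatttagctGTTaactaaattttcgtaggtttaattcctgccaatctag
mt-Tl2: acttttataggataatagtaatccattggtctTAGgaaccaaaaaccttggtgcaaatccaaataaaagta
mt-Tl1: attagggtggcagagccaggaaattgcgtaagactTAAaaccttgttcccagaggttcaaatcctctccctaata

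The 3 minus strand genes of this group were lower in p53-deficient cells. mt-Tn measured 197, 174 and 179 FPKM in WT and 121, 122 and 105 FPKM in p53-deficient cells (log2 fold change -0.66, SE 0.0709, adjusted p = 0.000219 in limma). mt-Tc measured 308, 281 and 272 FPKM and 191, 236 and 161 FPKM (-0.56, SE 0.134, adjusted p = 0.0089). mt-Tp measured 631, 668 and 689 FPKM and 502, 576 and 551 FPKM (-0.29, SE 0.0582, adjusted p = 0.00431). None of the 3 had overlapping groups. On the plus strand, mt-Tl2 measured 185, 156 and 224 FPKM and 157, 180 and 179 FPKM, with overlap (-0.11, adjusted p = 0.466), and mt-Tl1 was higher, as given above. Relative to mt-Cytb, from which 1 other tRNA gene parts it on the opposite strand, mt-Tp stood at 0.246 ± 0.00833 times per length in WT and 0.202 ± 0.0187 times in p53-deficient cells.

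The other 11 tested tRNA genes did not pass, on 12 to 316 reads each. On the log2(FPKM + 1) scale the largest difference among them was 0.75 for mt-Tw (tryptophan, 15.1 ± 5.63 to 25.6 ± 7.63 FPKM, adjusted p = 0.0643 in limma). mt-Tk followed with 0.74 and mt-Ta with 0.66. By the ratio of mean FPKM, mt-Tk (2.59) and mt-Tq (2.10) differed most, on 12 reads each. mt-Te, the glutamate tRNA gene beside mt-Nd6, had 38.3 ± 5.29 and 26.0 ± 8.58 FPKM (-0.58, adjusted p = 0.0597), and it was called lower with a filter of mean FPKM at least 5, median-ratio scaling, quantile normalization, voom weights and the replicate block. Leaving 1 library out gave calls for 10 of the 11 genes. Without p53-deficient library 1, mt-Ti was called lower (-0.76) and mt-Tk and mt-Th higher (1.22 and 0.46), and without p53-deficient library 2, mt-Te was called lower (-0.82) and mt-Tq and mt-Tw higher (0.78 and 0.96). Without p53-deficient library 3, mt-Ty and mt-Tt were called higher (0.72 and 0.40). Leaving out WT library 1, 2 or 3 gave rises of mt-Ta (0.30), mt-Tw (1.01) and mt-Ts2 (0.39). mt-Tv and mt-Tr had 4 and 3 reads and were not tested. mt-Tf, mt-Ts1, mt-Td and mt-Tg had no read in any library, which allows up to 3 reads over the 6 libraries, or 0.398 to 0.409 FPKM depending on gene length, by counting error alone.

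By strand, reads of minus strand genes numbered 2.89, 2.75 and 2.75 per 100 reads of plus strand genes in WT and 2.29, 2.41 and 2.26 in p53-deficient cells. The groups did not overlap, and the log2 difference of -0.27 exceeded the spread of 0.0444. mt-Nd6 alone made up 86.7 ± 0.287% of minus strand gene reads in WT and 86.5 ± 1.07% in p53-deficient cells, so the strand ratio is mostly that of this gene. Of 8 tested minus strand genes 4 fell and none rose (median -0.36), and of 23 tested plus strand genes 5 fell and 3 rose (median 0.02). Among tRNAs, 3 of 7 tested on the minus strand fell and none rose, and 1 of 9 tested on the plus strand rose and none fell. The tRNA gene that rose is mt-Tl1, whose call was lost under median-ratio scaling, quantile normalization and voom weights. Over all genes tested, 31.3% were called lower and 35.3% higher, and whether these counts differ from those shares was not tested. Not all minus strand genes went one way: mt-Ta, mt-Ty and mt-Tq had higher means in p53-deficient cells and did not pass (0.66, 0.49 and 0.58). mt-Nd5, with the most negative log2 fold change of the tested members, lies on the plus strand. The split is by the strand of the annotated gene, not by the strand of the reads.

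Nuclear genes that serve mitochondrial gene expression were mostly higher in p53-deficient cells. Of 77 listed genes, 73 were tested, 47 rose (64.4%), 10 fell (13.7%) and 16 did not pass, beside 35.3% and 31.3% over all genes tested, and their median log2 fold change was 0.25. Among 11 genes of transcription, 8 rose and none fell. Tfam, which packages mitochondrial DNA and helps to start its transcription, rose from 18.0 ± 0.960 to 23.9 ± 0.786 FPKM (log2 fold change 0.39, adjusted p = 0.000293 in limma), and Tfb2m, which opens the promoters, rose by 0.48. Mterf3, a regulator of mitochondrial transcription and ribosome assembly, rose by 0.39, and Mrpl12, a protein of the mitochondrial ribosome also known to bind the mitochondrial RNA polymerase, rose from 42.1 ± 1.04 to 109 ± 5.97 FPKM (1.35, adjusted p = 9.43e-07). Tefm, the elongation factor, did not pass (-0.03).

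Of 13 genes that cut, tail or degrade mitochondrial RNA, 11 rose and none fell, while 35.3% rose and 31.3% fell over all genes tested. Trmt10c, a subunit of the RNase P that cuts at the 5′ ends of tRNAs, rose from 9.75 ± 0.213 to 16.1 ± 0.350 FPKM (log2 fold change 0.67, adjusted p = 4.61e-06 in limma). Elac2, the nuclease for the 3′ ends, rose by 0.53, while 1110008L16Rik, the nuclease subunit of RNase P, did not pass (-0.01). Grsf1, a protein of mitochondrial RNA granules, rose by 0.55, and Angel2 by 0.51. Of 9 genes for RNA-binding proteins of the FASTK and PPR families, 7 rose and none fell. Fastkd5, needed for cuts at junctions without a tRNA, rose by 0.68, Fastkd3 by 0.57, Fastkd2, which binds mt-Rnr2 and mt-Nd6 RNA, by 0.53, and Ptcd3, a protein of the small ribosomal subunit, by 0.39, whereas Ptcd2 did not pass (0.15).

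Of 14 genes that modify rRNA and tRNA, 10 rose and 1 fell, while 35.3% rose and 31.3% fell over all genes tested. Tfb1m, which rose by 0.30, is counted both here and among the genes of transcription. One of the 10 is the entry named Trmt61b, which went from 0.876 ± 0.171 to 3.05 ± 0.398 FPKM (ratio of means 3.48, difference in log2(FPKM + 1) 1.11). The table gives its biotype as antisense, while the other listed genes are protein-coding, and without strand information its reads cannot be told apart from those of genes it overlaps. Pus1, a pseudouridine synthase, rose by 0.88, Mrm3, which methylates the large rRNA, by 0.78, and Gtpbp3, which modifies tRNA wobble uridines, by 0.39. Mrm1, another methyltransferase of the large rRNA, did not pass (0.09). The 13 genes of replication and DNA upkeep were split, with 6 higher (46.2%) and 4 lower (30.8%). Twnk, the replicative helicase, rose by 0.88, the nuclease gene Exog by 0.64 and the topoisomerase gene Top3a by 0.59. Rnaseh1, which removes RNA from RNA-DNA hybrids, fell by 0.43 on the log2 scale, and the nuclease gene Endog did not pass (0.03).

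The nucleotide supply group was divided as well: of 8 tested genes 2 rose, 3 fell and 3 did not pass. Rrm2b, a ribonucleotide reductase subunit and a known p53 target, had 1.58 ± 0.0655 FPKM in WT and fell to 0.822 ± 0.0509 FPKM (ratio of means 0.519, difference in log2(FPKM + 1) -0.50). Slc25a36, a carrier of pyrimidine nucleotides, fell by 0.70 on the log2 scale. Samhd1, which breaks down deoxynucleotides, rose by 0.66 and Slc25a4, the ADP/ATP carrier, by 0.50, while the pyrimidine nucleotide carrier Slc25a33 did not pass (0.06). Of 6 tested regulators of mitochondrial biogenesis 4 rose and 2 fell. The coactivator genes Pprc1 and Ppargc1b rose by 0.54 and 0.37, and Esrra, a nuclear receptor, and Gabpb1, a subunit of a GA-binding factor, fell by 0.68 and 0.32 on the log2 scale. The rises in the expression groups thus stood in the same libraries as a lower share of mitochondrial reads.

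**Figure D5:**
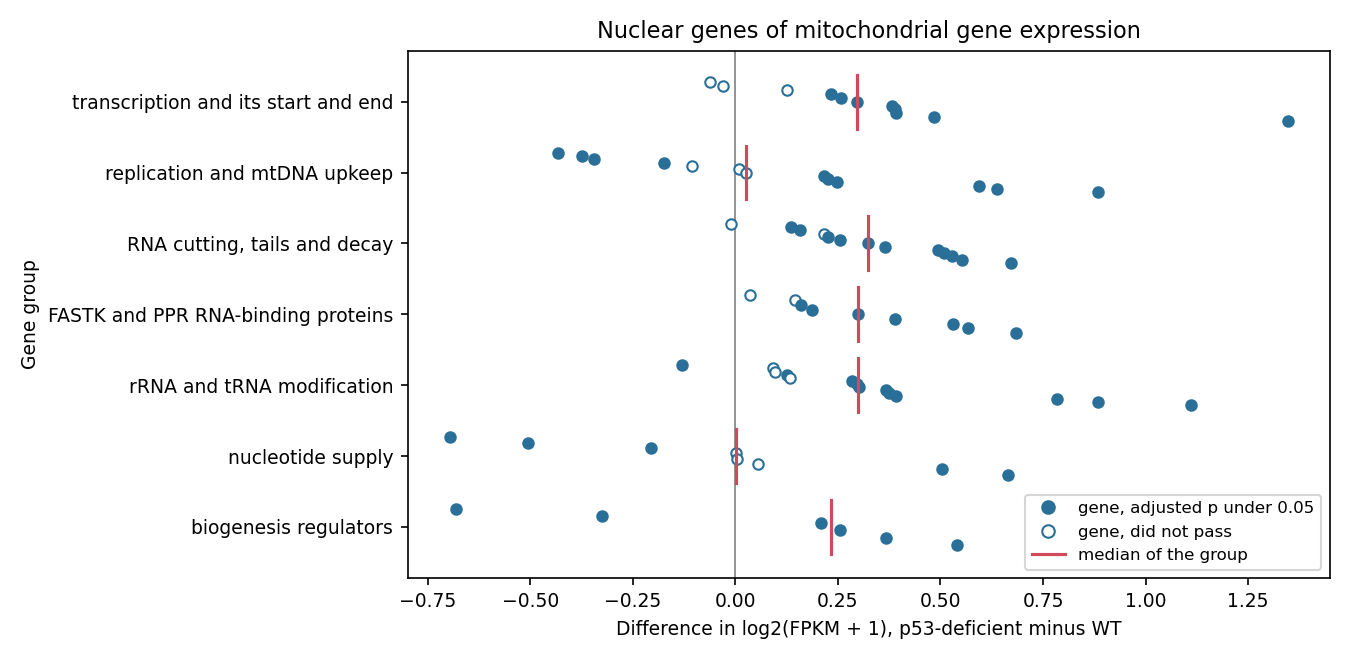
Difference between groups in log2(FPKM + 1), p53-deficient minus WT, for the 73 tested nuclear genes of mitochondrial gene expression, one point per gene, by group. Filled points passed an adjusted p of 0.05 and red lines are group medians, which lie near 0 for replication and nucleotide supply and above 0 for the other groups.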

How the data were processed

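RNA was measured in 6 libraries, 3 of each group. Per the labels' protocols, mRNA was purified with poly-T beads and libraries were made with a NEBNext Ultra kit. The authors deposited FPKM for each gene in each library. HISAT2 2.0.5, featureCounts 1.5.0-p3 and the mouse build mm10 are named, without roles, per the submitters' processing notes. FPKM times gene length gave whole multiples of 1 read for 100% of values (tolerance 0.001), so reads were rebuilt, and the divisor was 99.1% to 101% of reads in listed genes.

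Genes with a mean of 0.5 FPKM or more entered a limma fit (limma 3.58.1, R 4.3.3) of log2(FPKM + 1) with a variance trend, 2-sided, with Benjamini-Hochberg adjustment over 15144 genes and calls at an adjusted p under 0.05. Fold changes on this scale understate those of low genes. An exact permutation test of 3 against 3 libraries cannot go below 0.1, so calls rest on variance shared across genes. The fit was also run on simulated data in which 200 genes were changed, against 10074 genes called here. Because that setting differs from these data, the run gives no support to the calls. Members and gene lists were chosen with earlier results of these data known.

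Named were all mitochondrial mRNAs and rRNAs, the tRNAs past the filter with the 4 of most reads in full, up to 4 called nuclear genes per group by size of change (mean FPKM at least 1) with the most abundant one that did not pass, every nuclear copy with reads, and Trp53. mt-Tl1 was described in full beside these after its values were seen. Copies were sought with BLAST+ 2.17.0 among transcripts of GENCODE M21, in which all 37 genes had the table's coordinates and strand. Copies outside annotated transcripts were not sought. Alternatives were other pseudocounts, filters and scalings, voom weights, no variance trend, a replicate block, and each library left out. Adding the reads of the chromosome 1 copies was chosen after seeing the data. Python 3.11.15 and matplotlib 3.10.9 were used.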

Additional observations from a re-analysis of the deposited data

How the results depend on the processing

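The 9 lower mitochondrial calls were kept under every alternative run, except mt-Co1 under quantile normalization, which sets the gene ranked first in every library to the same value. Lower calls numbered 9 to 13. Higher calls numbered 3, and 5 with a mean FPKM of at least 5, with quantile normalization, with voom weights, with the replicate block and with chromosome 1 reads added. They numbered 2 with median-ratio scaling and 4 to 6 with 1 library left out, 6 being reached without WT library 3 or p53-deficient library 2. Nuclear copies called higher numbered 2 instead of 1 with voom weights and the replicate block, and 1 to 2 with 1 library left out. Gm28661 was not called without WT library 1 (adjusted p = 0.0512 in limma). The ratios of reads stayed on their side of 0 by summed FPKM, without copied genes and with each library left out. Replicate numbers did not pair libraries, as same-numbered libraries correlated at -0.0328, 0.0142 and 0.00556 around their group means. The replicate block gave 10 lower members.

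Signs turned only for genes that were not called in the fit described above. With the turned sign, mt-Nd2 was called lower under median-ratio scaling (adjusted p = 0.0329 in limma). Likewise mt-Nd4 was called higher under quantile normalization (adjusted p = 0.0134 in limma). With median-ratio scaling, log2 fold changes were -0.020 for mt-Nd1, -0.072 for mt-Nd2, -0.063 for Endog and -0.032 for Slc25a33. With quantile normalization they were 0.10 for mt-Nd4, -0.017 for Endog and 0.012 for 1110008L16Rik. With 1 library left out they ranged from -0.11 to 0.096 for mt-Atp8, -0.24 to 0.017 for mt-Tl2, -0.016 to 0.020 for mt-Cytb, -0.033 to 0.40 for mt-Tt, -0.095 to 0.026 for Tefm, -0.037 to 0.080 for Endog, -0.050 to 0.013 for 1110008L16Rik and -0.0043 to 0.11 for Slc25a33. The cause was not tested. Of the 22 tRNA genes, 17 had at most 316 reads over 6 libraries.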

Other observations

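Mitochondrial genes had other annotated nuclear matches than those on chromosome 1, and the pseudogenes among those given here had means of 0 to 0.518 FPKM. On chromosome 2, Gm13340 matched the whole of mt-Co1 at 97.6% identity and had a mean of 0.518 FPKM over the 6 libraries, where mt-Co1 had 5280 FPKM, and it did not pass (log2 fold change -0.17). Its neighbours Gm13341, at 95.9% identity to mt-Co2, and Gm13339, at 96.7% to part of mt-Nd2, had 0.0664 and 0 FPKM. Gm11410, Gm11407 and Gm11408 on chromosome 4 matched mt-Cytb, mt-Nd5 and mt-Nd6 at 92.9%, 92.3% and 93.6% and had no reads. In Gm11407 and Gm11408, as on the mitochondrial genome, the matches to mt-Nd5 and mt-Nd6 lie on opposite strands. Within the transcript of Cep295, a centrosomal gene on chromosome 9 at 3.16 FPKM, a stretch of 62 bases matched mt-Tl1 in antisense at 93.5% and one of 71 bases matched mt-Tn in sense at 91.5%. No annotated copy of mt-Rnr1 or mt-Rnr2 was found at 90% identity or more over at least 60 bases.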
